A study of Rattus norvegicus with 9 samples.

Results

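The comparison described here sets rat oligodendrocyte precursor cell (OPC) cultures given 1 µM bavisant against basal cultures without the drug, across all genes measured. It covers 6 of the 9 libraries of the series: the 3 titled basal and the 3 titled 1 µM, which carry the numbers P11, P13 and P14 in each group and were compared within a number. Of 32623 gene IDs, 20300 had a read in at least 1 of the 9 libraries and 15321 were abundant enough to be tested. All cultures were wild-type purified brain OPCs, kept in differentiation medium (DMEM-F12 with B27, N1, biotin and laminin) and collected on day 5, so every library comes from differentiating cells and basal means medium alone. The other 3 libraries had 10 µM bavisant for the same time and served as a second dose. What P marks is not stated, and nothing says that P11, P13 and P14 came from different cultures, rats or litters. The p-values thus measure the spread between these libraries, which may be technical. The lower dose is written 1 mM in the protocols but 1 µM in the series design, and 1 µM is taken as the dose.

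OPCs are the dividing glial cells of the brain that leave the cell cycle and mature into oligodendrocytes, the cells that wrap axons in myelin. Maturation is read from genes of the myelin sheath such as Mbp and Mag, from transcription factors such as Myrf and Sox10, and from the cholesterol pathway, since myelin membrane is rich in sterol. Bavisant is an antagonist of the histamine H3 receptor, a receptor that signals through Gi proteins to lower cAMP. The receptor is best known in neurons, where it limits the release of histamine and other transmitters.

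The 3 basal libraries held 23.9, 29.8 and 33.5 M estimated reads (M, 1e+06; P11, P13 and P14 in that order, as in every list of 3 values below), and the 1 µM libraries held 39.2, 34.8 and 43.1 M, so each 1 µM library was deeper than its basal partner. Libraries of the same number resembled each other, though less in P13 than in P11 and P14. The first principal component of the 6 libraries (60.4% of the variance) placed both P11 libraries at 51.5 and 51.2, and the other 4 between -43.6 and -9.55. The second (17.7%) had basal P13 at -20.8 and 1 µM P13 at -34.1. On the third (8.22%) these 2 lay at opposite ends, at -27.0 and 20.5. The 1 µM P13 library stood apart from the rest. It held 2251 TPM (a level per gene length and library total) summed over 40 interferon-stimulated genes, against 773 to 921 TPM in the other 5. Several list results, among them those of the interferon, cholesterol and cytokine lists, are given with and without it.

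OPC markers and mature markers were both abundant. Pdgfra, the growth factor receptor of precursors, was at 91.9 to 238 TPM in basal cultures, and Mbp, myelin basic protein, at 17296 to 21343 TPM. Markers of other brain cells were present too, with Gfap of astrocytes at 656 to 1221 TPM, Aif1 of microglia at 134 to 218 TPM and Gad1 of GABA neurons at 32.2 to 110 TPM. In such bulk samples, fewer cells of a type and less RNA per cell cannot be told apart.

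No gene passed the test at 1 µM against basal. With the P number as a block, edgeR's quasi-likelihood test called 0 of 15321 genes (0%) at an adjusted p under 0.05, and the lowest adjusted p was 0.563. At an unadjusted p under 0.05 there were 582 genes (3.8%), 293 of them higher (1.91%) and 289 lower (1.89%), where evenly spread p-values would give 766. Without the block the count was again 0, with 81 genes at an unadjusted p under 0.05, and limma on log2(TPM + 1) with the block also called 0. DESeq2 with the block called 8 genes (0.0522%), 4 higher and 4 lower, which are named with their values below. The interquartile range of all log2 fold changes ran from -0.06 to 0.06.

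**Figure D1:**
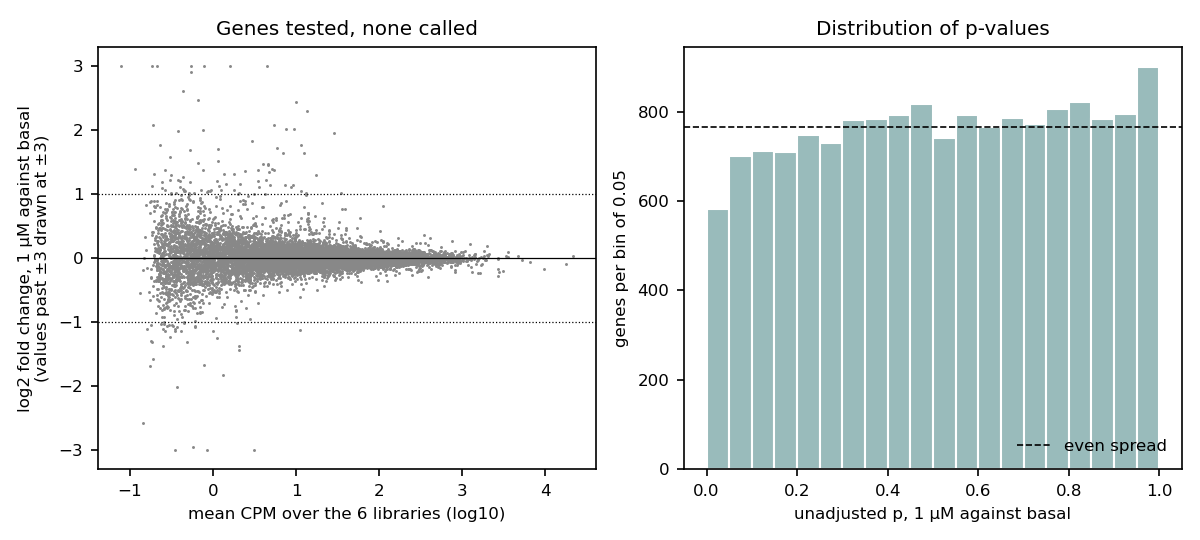
Left, the log2 fold change at 1 µM against basal of each of the 15321 genes tested, over its mean CPM (reads scaled to library size, log10) in the 6 libraries, with dotted lines at 2-fold. Right, the unadjusted p-values in bins of 0.05 with a dashed line at an even spread: the first bin, with 582 genes, lies under the line at 766.

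The precision of single genes was read from their intervals, which are not adjusted for the number of genes. The 95% interval of the fold change, taken gene by gene, lay within 1.5-fold of no change for 12287 of the 15321 genes (80.2%). Among 9992 genes with a mean of at least 10 CPM the share was 98.4%, and the median distance from a log2 fold change to either end of its interval was 0.15. Among 1635 genes under 1 CPM it was 1.65%, so for those genes a 1.5-fold change was not detectable at this depth. These intervals use the block, which lowered the common dispersion (the squared spread between libraries beyond counting) from 0.0675 to 0.00696. They do not show which changes could have passed the adjusted test.

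Gene lists are described below by their counts and by the median log2 fold change of their tested members at 1 µM against basal. These medians were small and rested on few libraries. With 1 of the 6 libraries left out in turn, the median of each of the 40 lists moved by over 1.5 times at least once, and that of 21 lists changed sign. The sizes are given with most of the lists that had the larger medians. Over all 15321 genes tested, 7433 were above 0 and 7888 below, the background for each list's counts. At an unadjusted p under 0.05 that background was 1.91% higher and 1.89% lower.

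The same fit compared the 2 doses directly. Between 10 µM and 1 µM, 659 genes passed (4.3%), 200 higher at 10 µM (1.31%) and 459 lower (3%). Between 10 µM and basal, 607 passed (3.96%). Both comparisons had 0 calls without the block. The count between the doses also fell to 0 without 1 µM P11, without 1 µM P14 or without 10 µM P14, to 31 without 1 µM P13 and to 182 without 10 µM P13. Every adjusted p between the doses given below is from all 9 libraries and carries that limit. With all 9 libraries, a list's calls between the doses stand beside 1.31% of all genes higher and 3% lower. The 10 µM and 1 µM comparisons with basal share the 3 basal libraries, so their values are only set side by side.

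Of the genes that were lower in all 3 P numbers, Hspa1b had the smallest p. It encodes the stress-inducible chaperone HSP70. Its level was 2.95, 3.28 and 2.65 CPM in the basal libraries, and 1.46, 1.17 and 0.843 CPM at 1 µM. Each 1 µM library lay below each basal library, from 37 to 57 reads against 69 to 101. The log2 fold change was -1.37 ± 0.18 (SE, 3 libraries per group) with an unadjusted p of 5.46e-05 and an adjusted p of 0.563 in edgeR, and DESeq2 called it (adjusted p = 0.00813). At 10 µM the values were 2.62, 3.08 and 2.15 CPM, close to basal, and the difference of 1.18 ± 0.18 between the doses passed (adjusted p = 0.021). Hspa1b has a near-identical neighbour copy, Hspa1a, and how the counting divides reads between copies is not given in the sources used here, so its level is uncertain.

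Gad1, which makes the transmitter GABA from glutamate, came next among the lower genes. Basal libraries had 58.3, 189 and 176 CPM and the 1 µM libraries 45.1, 156 and 130 CPM. The P11 libraries were far below the others in both groups, and within each number the 1 µM library was the lower one. The log2 fold change was -0.36 ± 0.05 (adjusted p = 0.563 in edgeR and 0.00108 in DESeq2). The 10 µM libraries were lower again, at 37.0, 126 and 120 CPM, with a difference between the doses of -0.24 ± 0.05 (adjusted p = 0.039).

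None of the other named lower genes passed in either tool. Gria1, a subunit of AMPA glutamate receptors, had 14.2, 53.9 and 43.5 CPM in basal cultures and 10.9, 40.9 and 37.2 CPM at 1 µM, a log2 fold change of -0.33 ± 0.07 (unadjusted p = 0.00188 in edgeR). At 10 µM it stood at 8.91, 27.5 and 27.3 CPM, lower than at 1 µM by -0.45 ± 0.08 (adjusted p = 0.023). Several more of these genes are best known from neurons and their synapses. Shank2, a scaffold of the postsynaptic side, had a log2 fold change of -0.28 ± 0.07, Dpysl5, a protein of growing axons, -0.27 ± 0.05, and MAST1, a kinase tied to microtubules, -0.27 ± 0.06. Ndrg4 was at -0.21 ± 0.04 and Tmem130 at -0.21 ± 0.05. Gipr, the receptor of the gut hormone GIP, had 3.89, 17.2 and 19.5 CPM against 2.72, 9.37 and 14.4 CPM, a log2 fold change of -0.61 ± 0.13. Ogt, the enzyme that adds the sugar GlcNAc to proteins inside the cell, was at -0.18 ± 0.04.

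Of the genes higher in all 3 P numbers, Ttr had the smallest p. It encodes transthyretin, a carrier of thyroid hormone and retinol made by the choroid plexus in the brain. Its basal level was 131, 94.9 and 219 CPM, and at 1 µM it was 170, 109 and 280 CPM. The groups overlapped, and the 1 µM library was the higher one in each number. The log2 fold change was 0.31 ± 0.05 (adjusted p = 0.563 in edgeR and 0.00279 in DESeq2). At 10 µM Ttr was at 118, 81.5 and 198 CPM, below 1 µM by -0.48 ± 0.05 (adjusted p = 0.012). In the ependymal marker list, which holds Ttr, 3 of 10 tested members were above 0 and the median was -0.03.

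Hist2h2aa3, a histone H2A gene, had 3.08, 3.34 and 1.97 CPM in basal cultures and 7.46, 5.09 and 4.42 CPM at 1 µM. The groups did not overlap. The log2 fold change was 1.01 ± 0.18 (adjusted p = 0.858 in edgeR and 0.0223 in DESeq2). The 10 µM libraries were at 5.70, 5.36 and 5.07 CPM, a difference from 1 µM of -0.04 ± 0.17. Histone genes of this cluster are near-identical in sequence, and the copy Hist2h2aa2 was at 20.1, 18.4 and 20.6 CPM against 19.7, 14.7 and 18.2 CPM, so how reads were divided between the copies bears on both values and was not tested.

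Nupr1, a small nuclear protein made under stress, had 11.3, 4.25 and 1.18 CPM in basal cultures and 17.5, 7.68 and 2.92 CPM at 1 µM. The level differed widely between numbers, and the 1 µM library was higher within each. Its log2 fold change was 0.89 ± 0.17 in edgeR (unadjusted p = 0.00085) and passed in DESeq2 (adjusted p = 0.037). At 10 µM it had 9.23, 4.82 and 0.939 CPM, and the difference between the doses passed (adjusted p = 0.024). Nupr1 is in the list of the integrated stress response, which slows protein synthesis under stress. Of its 28 tested genes 5 were higher and 1 lower at an unadjusted p under 0.05, beside 1.91% and 1.89% of all genes, with a median log2 fold change of 0.04 and 21 above 0. Without 1 µM P13 the list had 3 higher, 14 above 0 and a median of 0.01, which was also 0.01 without basal P13 and 0.12 without basal P11. Pycr1, an enzyme of proline synthesis in that list, was at 0.44 ± 0.11 and Shmt2, of one-carbon metabolism, at 0.14 ± 0.05.

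Of the remaining named higher genes, Ms4a6e, of a family expressed in macrophages, had 4.49, 7.20 and 7.60 CPM against 10.6, 10.4 and 9.88 CPM, with no overlap between the groups and a log2 fold change of 0.70 ± 0.16. Siglec1, a macrophage receptor for sialic acid, was at 0.57 ± 0.16, and Tapbp, which helps load peptides on MHC class I, at 0.40 ± 0.10. Lrrc32, which holds latent TGF-beta at the cell surface, had 8.56, 4.61 and 0.943 CPM against 12.1, 6.84 and 1.66 CPM, at 0.60 ± 0.12. Ccdc80, a matrix protein, was at 0.31 ± 0.07 and Aqp1, a water channel, at 0.83 ± 0.20. The 10 µM libraries were lower than 1 µM for Ms4a6e (-1.02 ± 0.16, adjusted p = 0.021), Lrrc32 (-0.96 ± 0.12, adjusted p = 0.014) and Ccdc80 (-0.57 ± 0.06, adjusted p = 0.014).

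**Figure D2:**
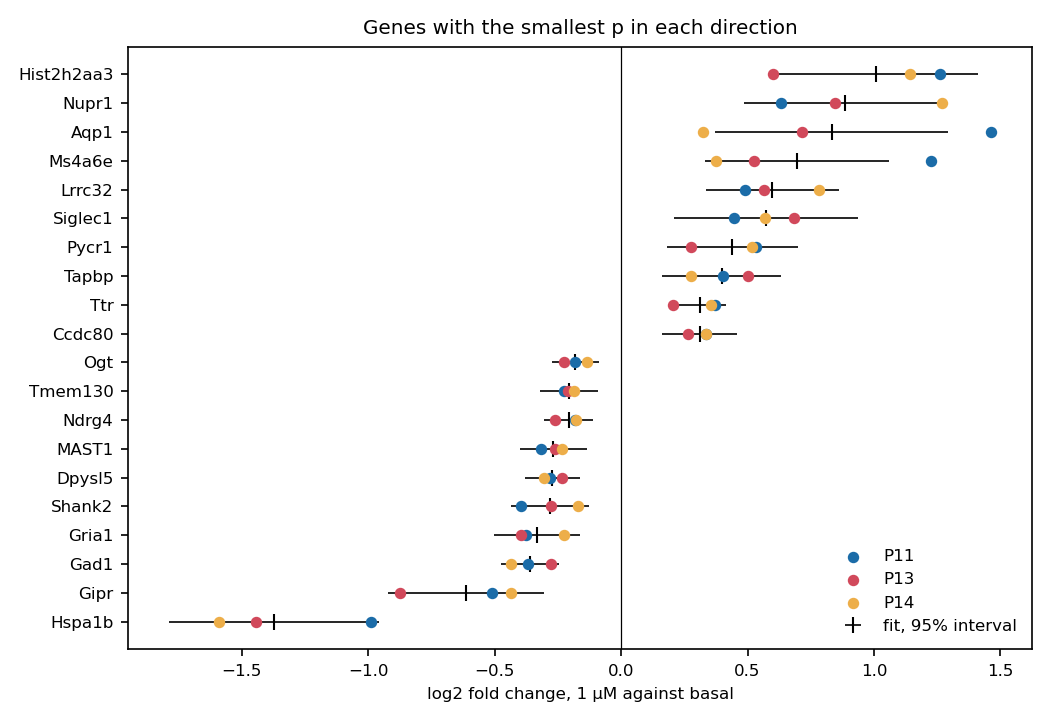
Log2 fold change at 1 µM against basal of the 10 higher and 10 lower genes with the smallest unadjusted p, with a dot for each P number and a bar for the fitted value and its 95% interval. All 3 dots of each gene lie on 1 side of 0 because the naming rule asks for it, and no gene shown passed edgeR's test.

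DESeq2 called 3 more genes that the naming rule leaves out. LOC100360647 was at 1.40 ± 0.29 and AC134224.1 at -0.38 ± 0.08, and neither has a descriptive name. Gdf1 was at -23.3 ± 4.02, but it had 18.6 CPM in the basal P11 library and no read in the other 5 compared, so 1 library decides that value. At 10 µM Gdf1 had no read in P11, 3.90 CPM in P13 and 21.0 CPM in P14. Gdf1 overlaps Cers1, a ceramide synthase, whose levels were 63.1, 109 and 116 CPM in basal cultures and 86.5, 108 and 116 CPM at 1 µM.

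Transcripts of bavisant's target were scarce. Hrh3, the histamine H3 receptor, had 13, 9 and 23 reads in the basal libraries and 18, 13 and 35 reads at 1 µM, which is 0.333 to 0.849 TPM in all 6. The log2 fold change was 0.10 ± 0.36 with a 95% interval from -0.72 to 0.92, so a change of Hrh3 up to nearly 2-fold was not detectable at this depth. Hrh1, the H1 receptor that couples to Gq, was the histamine receptor with the highest level per gene length, at 3.54, 2.47 and 3.94 TPM in basal cultures and 2.15, 2.45 and 4.45 TPM at 1 µM, and its log2 fold change was -0.17 ± 0.21. Hrh2 had 1 to 10 reads per library and Hrh4 none in any of the 9 libraries, where 3 reads would be allowed by a count of 0.

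The enzymes of histamine were near the floor as well. Hdc, which makes histamine, had 0 to 6 reads and Hnmt, which methylates it, 0 to 4 reads in the 6 libraries, and neither was tested. Aoc1, the diamine oxidase that breaks histamine down, had 0.214, 2.40 and 4.09 CPM in basal cultures and 0.205, 3.14 and 4.44 CPM at 1 µM, a log2 fold change of 0.23 ± 0.19. It was at 0.268, 6.95 and 8.56 CPM at 10 µM, above 1 µM by 0.97 ± 0.18 (adjusted p = 0.03), with all 3 P11 libraries near 0. Maob, which degrades the methylated product, was at 0.34 ± 0.17.

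Genes of Gi and cAMP signalling showed no shared direction. Of 33 tested members, 16 were above 0 and 17 below, and the median log2 fold change was -0.02, beside 0.00 over all genes tested. At an unadjusted p under 0.05 there was 1 higher member, Gnas (0.13 ± 0.05), the stimulatory G protein, and 1 lower, Gnao1 (-0.12 ± 0.05), an inhibitory one abundant in neurons. Of 30 immediate early genes, the first transcripts made after a stimulus, 1 was higher at that level, Junb at 0.18 ± 0.07, with a median of 0.05.

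Myelin genes at 1 µM were close to basal. Mbp was at 20420, 21035 and 23694 CPM in basal cultures and at 21816, 20401 and 24173 CPM with 1 µM bavisant. The groups overlapped throughout, and the log2 fold change was 0.03 ± 0.07 with a 95% interval from -0.12 to 0.18. At 10 µM Mbp was at 30402, 33154 and 31036 CPM, all above every other library, and the difference between the doses was 0.51 ± 0.07 (adjusted p = 0.014).

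The rest of the sheath genes gave the same picture. Mag, which faces the axon, was at 0.05 ± 0.08 at 1 µM, Cnp, of the cytoplasmic channels, at 0.03 ± 0.05, Mog, on the outer surface, at 0.06 ± 0.10, and Mobp, of compact myelin, at 0.10 ± 0.11. Between the doses Mag differed by 0.47 ± 0.08 and Cnp by 0.30 ± 0.05 (both adjusted p = 0.023). Of the 45 tested genes in the compact myelin and late oligodendrocyte list, 26 were above 0 and 19 below at 1 µM, with a median of 0.02. The lower member at an unadjusted p under 0.05 was Ugt8 (-0.10 ± 0.04), which makes the myelin lipid galactosylceramide. At 10 µM against 1 µM, 16 of the 45 passed as higher and 1 as lower, with a median of 0.24. Without the 1 µM P13 library the medians were 0.04 at 1 µM and 0.21 between the doses, and no member passed between the doses.

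In Mog and Mobp the P numbers differed from each other far more than 1 µM did from basal. Mog had 107, 39.5 and 28.7 CPM in the basal libraries and 117, 34.6 and 34.1 CPM at 1 µM, and Mobp 1206, 283 and 232 CPM against 1329, 242 and 305 CPM. Both were far higher in P11 than in P13 and P14 at either condition. Pdgfra ran the other way, with 361, 798 and 900 CPM in basal cultures and 375, 877 and 909 CPM at 1 µM.

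Regulators and precursor genes were near basal too. Myrf, the factor that switches on myelin genes, was lower in each number (1445, 1029 and 1183 CPM against 1337, 954 and 1106 CPM), at -0.11 ± 0.05, and 10 µM exceeded 1 µM by 0.24 ± 0.05 (adjusted p = 0.046). Olig1 and Olig2, which define the lineage, were at 0.09 ± 0.05 and 0.12 ± 0.06, and Sox10, which they work with, at 0.02 ± 0.07. Pdgfra was at 0.07 ± 0.05 and Cspg4, the NG2 proteoglycan of precursors, at 0.10 ± 0.05. Of 26 OPC markers 17 were above 0 (median 0.06), and of 24 genes of newly formed oligodendrocytes 14 (median 0.01), with Bcas1 at 0.11 ± 0.05 and Enpp6 at -0.09 ± 0.17. No tested gene of the OPC list or of the 29 lineage transcription factors reached an unadjusted p under 0.05. Among the newly formed oligodendrocyte genes Kif19, a kinesin, reached it at 0.37 ± 0.11.

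**Figure D3:**
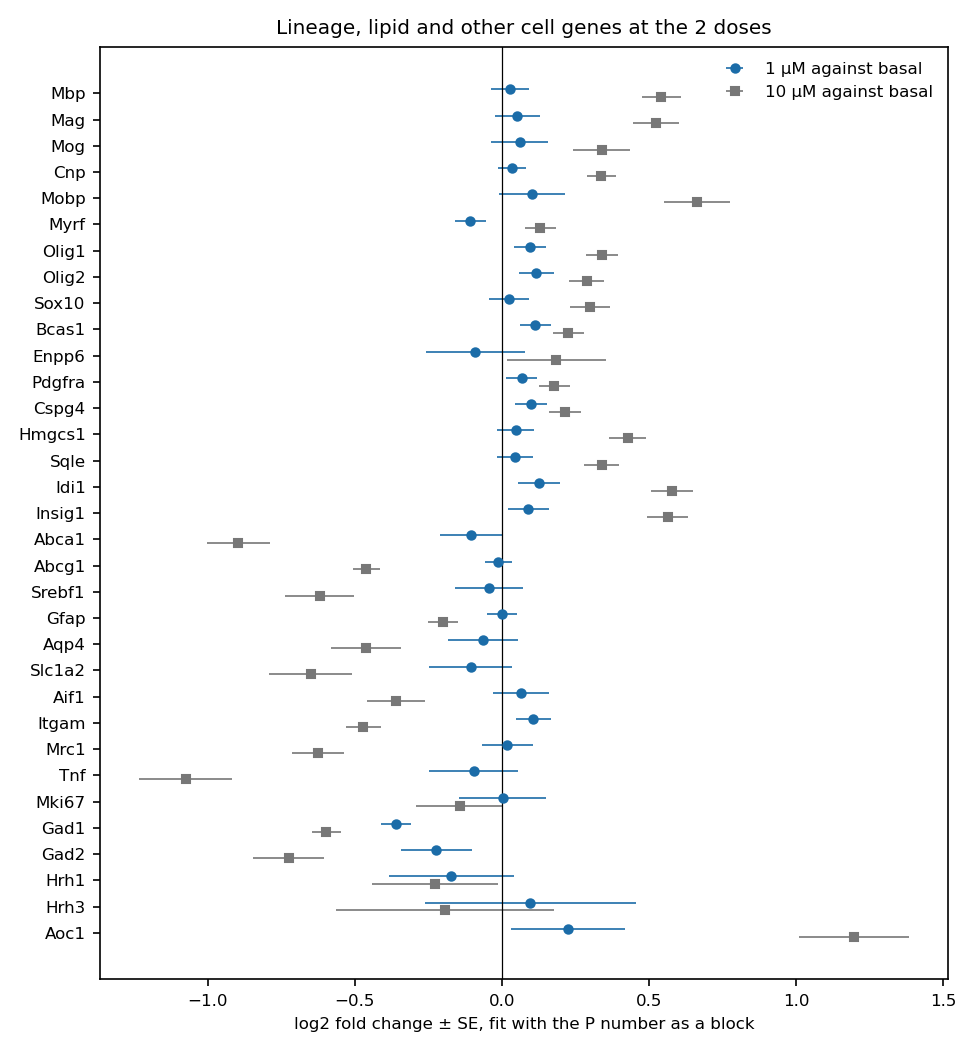
Log2 fold change ± SE (3 libraries per group, all 9 in the fit) of 33 lineage, lipid, other-cell and histamine genes at 1 µM (circles) and at 10 µM (squares) against the same basal libraries. Circles of myelin and sterol genes lie near 0, for example Mbp at 0.03, while the square of Mbp lies at 0.54.

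Cholesterol synthesis genes leaned slightly upward in P13, and in P11 and P14 they lay near 0 on opposite sides. Of 21 tested genes of the mevalonate and cholesterol pathway, 19 were above 0 at 1 µM, but the median was 0.07 and its values by number were 0.05, 0.20 and -0.05. At an unadjusted p under 0.05, 3 were higher: Mvk, mevalonate kinase, at 0.15 ± 0.05, Fdps, which makes farnesyl diphosphate, at 0.14 ± 0.06, and Dhcr7, of the last step, at 0.10 ± 0.04. Without the 1 µM P13 library 13 of 21 were above 0, the median was 0.01 and none reached that level. Without basal P13 the median was 0.04 with 15 above 0. The list's lean thus rested on the P13 pair.

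Other enzymes of the pathway were close to basal. Hmgcs1, an early enzyme, was at 0.05 ± 0.06 and Sqle, the first step of the sterol branch, at 0.05 ± 0.06. The feedback sensor Insig1 had 306, 305 and 284 CPM against 313, 380 and 268 CPM, a log2 fold change of 0.09 ± 0.07, with 442, 495 and 393 CPM at 10 µM, above 1 µM by 0.47 ± 0.07 (adjusted p = 0.018). Idi1 was at 0.13 ± 0.07 and 10 µM exceeded 1 µM by 0.45 ± 0.07 (adjusted p = 0.022). Between the doses 14 of the 21 pathway genes passed as higher, and 4 without the 1 µM P13 library.

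Lipid export genes, the targets of the sterol-sensing receptor LXR, were likewise near basal. Abca1, which moves cholesterol out of the cell, had 566, 276 and 246 CPM in basal cultures and 418, 256 and 290 CPM at 1 µM, lower in P11 and P13 and higher in P14, so its sign differed between numbers (-0.10 ± 0.11). At 10 µM it was at 282, 140 and 153 CPM, below 1 µM by -0.79 ± 0.11 (adjusted p = 0.016). Abcg1 was at -0.01 ± 0.05 at 1 µM and differed by -0.45 ± 0.05 between the doses (adjusted p = 0.013). Of 17 tested LXR targets, 7 were above 0 at 1 µM (median -0.01), and 5 passed as lower between the doses. Fatty acid synthesis (22 tested, median -0.01), myelin sphingolipid synthesis (24 tested, median -0.01) and fatty acid oxidation (25 tested, median -0.02) had medians close to that of all genes. Without 1 µM P13 the fatty acid synthesis median was -0.07, with 7 above 0 and 2 lower at an unadjusted p under 0.05. Without 1 µM P11 it was 0.02 with 13 above 0. Fasn, which builds palmitate, was at -0.11 ± 0.06, Ugcg, of glucosylceramide synthesis, at -0.11 ± 0.05, and Cpt1a, which takes fatty acids into mitochondria, at -0.15 ± 0.08.

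Interferon-stimulated genes had the highest median of the 40 lists, and 1 library carried it. These genes answer type I interferon through the factor ISGF3, which binds a promoter element with a GAAA repeat, and they encode antiviral proteins. Counted within a number among 12868 genes with a mean of at least 2 CPM, P13 had 84 genes over 2-fold higher at 1 µM (0.653%) and 18 lower (0.14%). In P11 these were 28 (0.218%) and 11 (0.0855%), and in P14 they were 40 (0.311%) and 14 (0.109%). Of the interferon list's 38 members at that level, 26 were over 2-fold higher in P13, 3 in P11 and none in P14. Of 34 genes over 4-fold higher in P13, 15 were in the list, and others outside it, such as Slfn4, Herc6, Rtp4 and Samd9, were noticed after their values were seen.

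The promoters of the genes with the largest values are shown for the element that ISGF3 is known to bind. Sequences were taken from RefSeq (build GRCr8, while the counts were made on rn6) and matched by gene ID or symbol for 31 of the 39 tested list members. The letters GAAA, any 2 bases and GAAA again, searched on both strands with overlapping matches allowed, occurred within the 300 bases around the start (250 before and 50 after) of 21 of these 31 genes (67.7%). They occurred in 3.92% of all 33469 promoters and in 2.87% of the 10809 tested genes with a promoter. The 4 list members with the largest ratios in P13 among those with a match are printed below as the 250 bases before the start, 5′ to 3′ on the gene's strand, with matches in capitals, which read TTTC, 2 bases and TTTC where the match is on the other strand. Ifit3 lies at chr1:241527076-241527325 (plus strand), Rsad2 at chr6:48788121-48788370 (minus), Oas1a at chr12:41330216-41330465 (plus) and Irf7 at chr1:205800024-205800273 (minus).
Ifit3: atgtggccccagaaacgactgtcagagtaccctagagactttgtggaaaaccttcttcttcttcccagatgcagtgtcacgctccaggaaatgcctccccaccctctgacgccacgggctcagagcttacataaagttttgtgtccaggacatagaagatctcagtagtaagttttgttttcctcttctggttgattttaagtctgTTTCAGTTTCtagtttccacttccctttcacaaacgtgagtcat
Rsad2: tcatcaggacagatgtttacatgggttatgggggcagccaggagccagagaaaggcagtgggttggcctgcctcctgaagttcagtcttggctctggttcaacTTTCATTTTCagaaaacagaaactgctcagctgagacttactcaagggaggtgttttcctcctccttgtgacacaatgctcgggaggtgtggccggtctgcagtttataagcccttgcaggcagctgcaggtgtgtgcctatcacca
Oas1a: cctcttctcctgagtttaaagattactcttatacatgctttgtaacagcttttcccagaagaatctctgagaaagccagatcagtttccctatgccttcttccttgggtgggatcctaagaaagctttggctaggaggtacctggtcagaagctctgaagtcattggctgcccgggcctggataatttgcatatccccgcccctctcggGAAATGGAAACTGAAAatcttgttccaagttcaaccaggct
Irf7: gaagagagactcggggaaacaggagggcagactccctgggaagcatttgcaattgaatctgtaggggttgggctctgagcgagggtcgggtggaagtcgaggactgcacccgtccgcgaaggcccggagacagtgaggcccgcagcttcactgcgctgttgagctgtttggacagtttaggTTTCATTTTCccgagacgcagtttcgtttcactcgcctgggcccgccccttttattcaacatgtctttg
In Ifit3, Rsad2 and Irf7 the window held 1 match, and in Oas1a it held 2 that overlap. The median log2 ratio in P13 was 1.77 over the 21 list members with a match and 0.95 over the 10 without, among them Mx1 and Oasl. The list was made of genes known to answer interferon, so a high share with the element was likely from the start. Isg15, Usp18 and Ifit2, with P13 ratios of 4.82, 3.79 and 3.46, had no promoter to search and are in neither group. The scan describes letters in these windows and shows no binding, and whether the element bears on the P13 ratios was not tested.

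Ifit3, which binds in antiviral complexes, had 0.257, 0.097 and 0.147 CPM in basal cultures and 1.03, 25.4 and 0.228 CPM at 1 µM. Mx1, an antiviral GTPase, had 23.2, 3.86 and 2.68 CPM against 19.3, 118 and 4.19 CPM, so its P11 pair was high at basal already and slightly lower with the drug. Isg15, a ubiquitin-like protein, had 2.91, 1.65 and 1.65 CPM against 4.41, 48.1 and 1.84 CPM. In all 3 genes the 1 µM P13 library was the highest of the 6, and the P14 ratios were far smaller, with log2 values of 0.48 for Ifit3, 0.63 for Mx1 and 0.16 for Isg15.

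Rsad2, the antiviral enzyme viperin, had 4.66, 2.72 and 4.09 CPM in basal cultures and 9.97, 56.4 and 3.80 CPM at 1 µM. Irf7, a factor that amplifies the interferon response, had 3.42, 2.66 and 1.77 CPM against 4.72, 43.2 and 1.71 CPM, and Oas1a, which senses double-stranded RNA, 3.34, 1.85 and 1.68 CPM against 4.28, 32.0 and 2.03 CPM. Other Oas1 copies lie beside Oas1a, so reads may be divided among them. The fitted log2 fold changes carried wide errors, 4.90 ± 1.62 for Ifit3, 1.96 ± 1.25 for Mx1, 2.43 ± 1.15 for Isg15, 2.30 ± 1.06 for Rsad2 and 2.02 ± 1.01 for Irf7, and none passed.

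**Figure D4:**
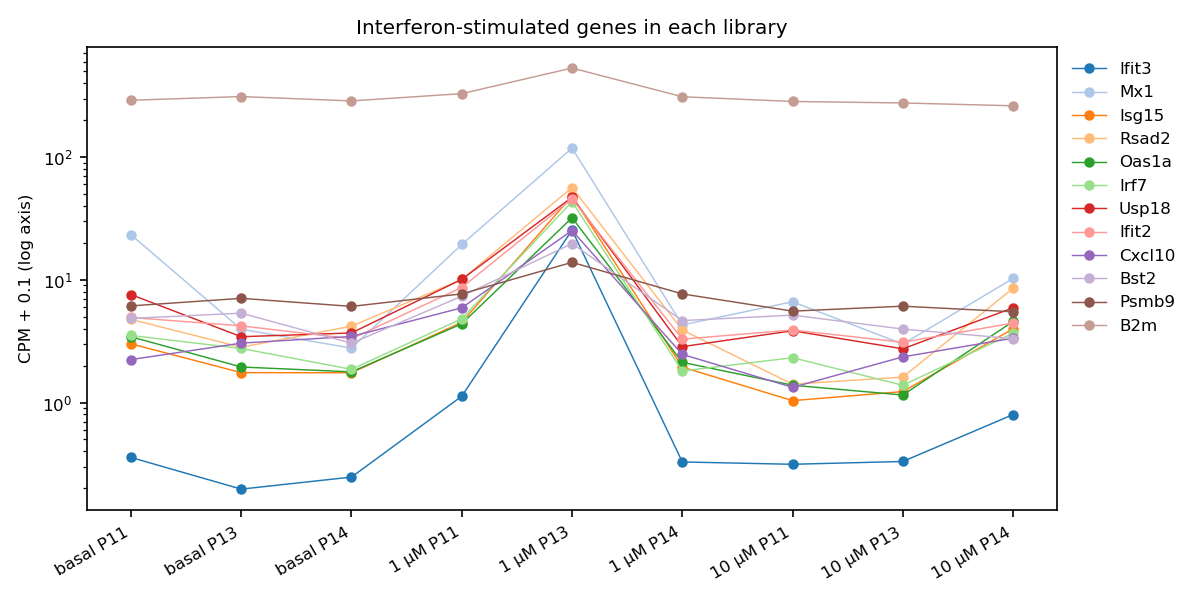
CPM + 0.1 (log axis) of 12 interferon-stimulated genes in each of the 9 libraries, with a line for each gene that only joins its points. All 12 are highest in the 1 µM P13 library, where Mx1 reaches 118 CPM, and no 10 µM library reaches that level in any of the 12.

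All 39 tested members of the list were above 0 in the fit, with a median of 0.63, while the medians by number were 0.25, 1.53 and -0.01. At an unadjusted p under 0.05, 8 were higher, and 15 were higher in all 3 numbers, where 13.7% of all genes were. Without the 1 µM P13 library the median was 0.08, with 30 of 39 above 0 and 4 at an unadjusted p under 0.05. Without 1 µM P14 the median was 1.02 and 35 reached that level, and without basal P13 it was 0.44 with 2. Several members of smaller effect were higher in all 3 numbers. Psmb9, an immunoproteasome subunit, had 6.03, 6.97 and 5.98 CPM in basal cultures and 7.59, 13.8 and 7.58 CPM at 1 µM, with no overlap between groups (0.57 ± 0.16). Bst2, which tethers virus particles, had 4.75, 5.25 and 2.94 CPM against 7.26, 19.7 and 4.55 CPM (1.14 ± 0.34), B2m, the light chain of MHC class I, was at 0.37 ± 0.14, and RT1-CE10, of the multi-copy MHC class I family, at 0.53 ± 0.17.

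Of the interferons, Ifng and Ifnb1 were looked up. Ifng had no read in any library, and Ifnb1 had 1 read, in 1 µM P13. The receptor chains Ifnar1 and Ifnar2 were at -0.03 ± 0.04 and -0.03 ± 0.07, the kinases Jak1 and Tyk2 at -0.03 ± 0.05 and -0.03 ± 0.08, and Irf3, which can induce interferon, at -0.07 ± 0.10. These fitted values span all 3 numbers. Within numbers, the log2 ratios of Irf3 were 0.10, -0.38 and 0.06, and those of Tyk2 0.16, -0.24 and -0.01. The P13 ratios of Ifnar1, Ifnar2 and Jak1 were -0.04, -0.03 and -0.04. Other genes looked up with them lay above 0 in the fit. The receptor chains Ifngr1 and Ifngr2 were at 0.09 ± 0.05 and 0.13 ± 0.07. The toll-like receptors Tlr3 and Tlr7 were at 0.22 ± 0.13 and 0.06 ± 0.13. The P13 ratios of Ifngr1, Ifngr2, Tlr3 and Tlr7 were 0.09, 0.18, 0.31 and 0.40, and Tlr7 was at -0.02 in P11 and -0.20 in P14. At 10 µM the interferon list was below 1 µM by a median of -0.91, or -0.28 without the 1 µM P13 library. With all libraries 3 members passed as lower, Psmb9, Psmb8 and Irf8, and without that library none did.

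The P13 pair also stood higher in cell cycle genes (median 0.30 over 44 tested genes, against -0.04 in P11 and -0.03 in P14). Mki67, a marker of dividing cells, had 84.3, 76.4 and 103 CPM in basal cultures and 64.6, 102 and 103 CPM at 1 µM, lower in P11, higher in P13 and level in P14. No cell cycle gene reached an unadjusted p under 0.05, and the list's median of 0.07 was -0.06 without basal P13 and 0.20 without basal P11.

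Microglia and macrophage markers were slightly above basal at 1 µM. Of 33 tested markers 30 were above 0, with a median of 0.10 and medians by number of 0.19, 0.09 and 0.06. At an unadjusted p under 0.05, 7 were higher and 1 lower, and 14 were higher in all 3 numbers (13.7% over all genes). The summed level of the list was 2434, 3362 and 2788 TPM in basal cultures and 2837, 3627 and 2908 TPM at 1 µM, so each 1 µM library was above its partner while the groups overlapped. Leaving out the 1 µM P13 library left 26 of 33 above 0 with a median of 0.10. Without basal P11 the median was 0.06, with 22 above 0 and 2 higher at that level.

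The higher members included 3 chains of complement C1q. C1qa, which starts the complement cascade, had 111, 132 and 110 CPM in basal cultures and 133, 140 and 137 CPM at 1 µM, with no overlap between groups (0.22 ± 0.06, unadjusted p = 0.00679 in edgeR). P2ry12, the purine receptor of resting microglia, was at 0.33 ± 0.14 and Cx3cr1, the fractalkine receptor, at 0.24 ± 0.10. Ctss, a lysosomal protease, was at 0.20 ± 0.07, and Cd74, of MHC class II, had 1.63, 0.649 and 0.324 CPM against 2.74, 1.45 and 0.797 CPM (1.06 ± 0.32). The member that was lower, Spp1 or osteopontin, had 58.1, 60.2 and 67.5 CPM against 40.0, 67.2 and 43.0 CPM (-0.34 ± 0.13). Aif1, Csf1r and Mrc1 were at 0.06 ± 0.10, 0.13 ± 0.09 and 0.02 ± 0.09.

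The 2 doses were apart in these markers. Itgam, an integrin of microglia, had 23.5, 31.5 and 31.9 CPM in basal cultures, 26.8, 33.2 and 33.5 CPM at 1 µM and 18.5, 21.5 and 22.4 CPM at 10 µM. Its log2 fold change was 0.11 ± 0.06 at 1 µM, and -0.58 ± 0.06 between the doses (adjusted p = 0.012). Of the 33 markers 13 passed as lower at 10 µM against 1 µM, and 2 without the 1 µM P13 library. The medians at 1 µM and 10 µM against the same basal libraries were 0.10 and -0.24.

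Cytokine genes depended on the P13 pair. Of 36 tested NF-kB and cytokine genes 29 were above 0 (median 0.11, and -0.02 with 17 above 0 without 1 µM P13), and 4 were higher at an unadjusted p under 0.05. They included Lcn2, an iron-carrying acute-phase protein, which had 1.11, 72.6 and 25.3 CPM in basal cultures and 1.85, 85.4 and 31.2 CPM at 1 µM (0.30 ± 0.09), and C3, the central complement protein, at 372, 291 and 318 CPM against 456, 343 and 363 CPM (0.24 ± 0.07). Tnf, the inflammatory cytokine, had 2.91, 5.90 and 5.39 CPM against 2.90, 5.98 and 4.37 CPM (-0.10 ± 0.15), and 1.10, 3.21 and 2.63 CPM at 10 µM. Between the doses Lcn2 differed by -0.97 ± 0.09 (adjusted p = 0.012) and Tnf by -0.98 ± 0.16 (adjusted p = 0.022), as did 14 of the 36 genes in all, each lower at 10 µM. Without the 1 µM P13 library 1 of the 36 passed.

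Of 56 tested extracellular matrix genes 39 were above 0 at 1 µM (median 0.07), 5 of them higher at an unadjusted p under 0.05. The median was 0.03 without 1 µM P13, 0.01 without basal P14 and 0.13 without basal P13. Bgn, the proteoglycan biglycan, had 124, 81.4 and 22.1 CPM in basal cultures and 151, 89.1 and 28.2 CPM at 1 µM (0.25 ± 0.07), and Col3a1, a fibrillar collagen, 755, 323 and 68.1 CPM against 843, 421 and 88.4 CPM (0.31 ± 0.11). Both varied more between numbers than between conditions, and P11 was the highest in each group. The summed mural and fibroblast markers were 859, 638 and 519 TPM in basal cultures and 886, 723 and 539 TPM at 1 µM, in the same order of numbers, and their part in the matrix values was not tested. Of 19 tested mural and fibroblast markers 16 were above 0, with a median of 0.10. That median was -0.03 with 9 above 0 without 1 µM P14, and 0.12 without basal P13. Between the doses 24 of the 56 matrix genes passed as lower, among them Bgn (-0.63 ± 0.07, adjusted p = 0.013) and Col3a1 (-0.79 ± 0.12, adjusted p = 0.017), and 1 without the 1 µM P13 library.

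Neuron markers were on the lower side. Of 29 tested markers 24 were below 0, with a median of -0.10 and medians by number of -0.16, -0.03 and -0.06, and 10 were lower in all 3 numbers (14.3% over all genes). At an unadjusted p under 0.05, 5 were lower and none higher. The summed level was 1153, 1874 and 1791 TPM in basal cultures and 1097, 1824 and 1742 TPM at 1 µM, a small difference within each number. Without the 1 µM P13 library 5 of the 29 were above 0 and 5 were lower at that level. Over the 6 libraries left out in turn the median ran from -0.15, without basal P14, to -0.08, and the lower count from 4 to 6.

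The 5 genes at that level were Gad1, given above, and 4 others of GABA neurons, axons and synapses. Slc32a1, which loads GABA into vesicles, was lower in each number, at -0.23 ± 0.06. Stmn2, a microtubule protein of growing axons, had 31.4, 96.8 and 77.5 CPM against 28.1, 84.9 and 66.7 CPM (-0.19 ± 0.05), Syn1, of synaptic vesicles, was at -0.14 ± 0.05 and Dlx1, a factor of forebrain GABA neurons, at -0.18 ± 0.07. Others in the list had larger errors: Snap25 was at -0.21 ± 0.11, Gad2 at -0.22 ± 0.12 and Tubb3 at -0.06 ± 0.09.

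Receptors and channels that neurons share with glia were also mostly below 0. Of 38 glutamate and GABA receptor genes 29 were below 0 (median -0.11), and 11 were lower in all 3 numbers (14.3% over all genes). At an unadjusted p under 0.05, 4 were lower and 1 higher, beside 1.89% and 1.91% of all genes. Without basal P13 the median was -0.06, and the count of lower members ran from 1 to 5 with 1 library left out. Gabra4 was at -0.25 ± 0.11 and Grik2 at -0.14 ± 0.05, and Gabra3 was the higher one at 0.23 ± 0.10. Of 41 ion channel genes 29 were below 0 (median -0.07) and 4 were lower at that level, such as Scn1a, a sodium channel, at -0.29 ± 0.12, and Kcnn2, a calcium-gated potassium channel, at -0.25 ± 0.11. The ion channel medians by number were -0.16, -0.04 and 0.03. Without 1 µM P11 the median was -0.02, with 17 above 0 and none lower at that level, and with P11 left out of all groups it was -0.01 with 20 above 0. Without 1 µM P13 the ion channel median was -0.11, with 9 above 0 and 4 lower at that level. How far these follow the neuron marker sums was not tested.

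Astrocyte markers differed between the numbers. Of 27 tested markers 20 were below 0 with a median of -0.09, but the medians by number were -0.23, -0.15 and 0.06. At an unadjusted p under 0.05, 1 was higher and 1 lower, beside 1.91% and 1.89% of all genes. The log2 fold changes ran from -0.52 to 0.27. The median was -0.01 without basal P11, -0.04 without 1 µM P13 and -0.16 without 1 µM P14. Aqp4, the water channel of astrocyte endfeet, had 504, 332 and 410 CPM in basal cultures and 393, 300 and 516 CPM at 1 µM, lower in P11 and P13 and higher in P14 (-0.06 ± 0.12). Gfap was at 0.00 ± 0.05 and Slc1a2, the main glutamate transporter, at -0.11 ± 0.14. Slc4a4, a bicarbonate transporter, was lower in each number at 124, 64.6 and 109 CPM against 96.5, 51.7 and 99.2 CPM (-0.27 ± 0.07). The markers summed to 5132, 5035 and 5516 TPM in basal cultures and 4823, 4545 and 5825 TPM at 1 µM.

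Vascular and Schwann cells left small or shared signals. Endothelial markers summed to 71.0 to 119 TPM in basal cultures and 75.5 to 125 TPM at 1 µM, with Robo4 at 0 in all 6 libraries, and 12 tested members had a median of 0.06. The Schwann list (median -0.04 over 11 tested) holds genes that oligodendrocytes also express, such as Sox10, and its peripheral marker Ncmap was at 0. The ependymal list, which holds Ttr, summed to 423, 332 and 733 TPM in basal cultures and 525, 374 and 910 TPM at 1 µM. Each 1 µM sum was above its partner, while 3 of 10 tested members were above 0 in the fit.

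**Figure D5:**
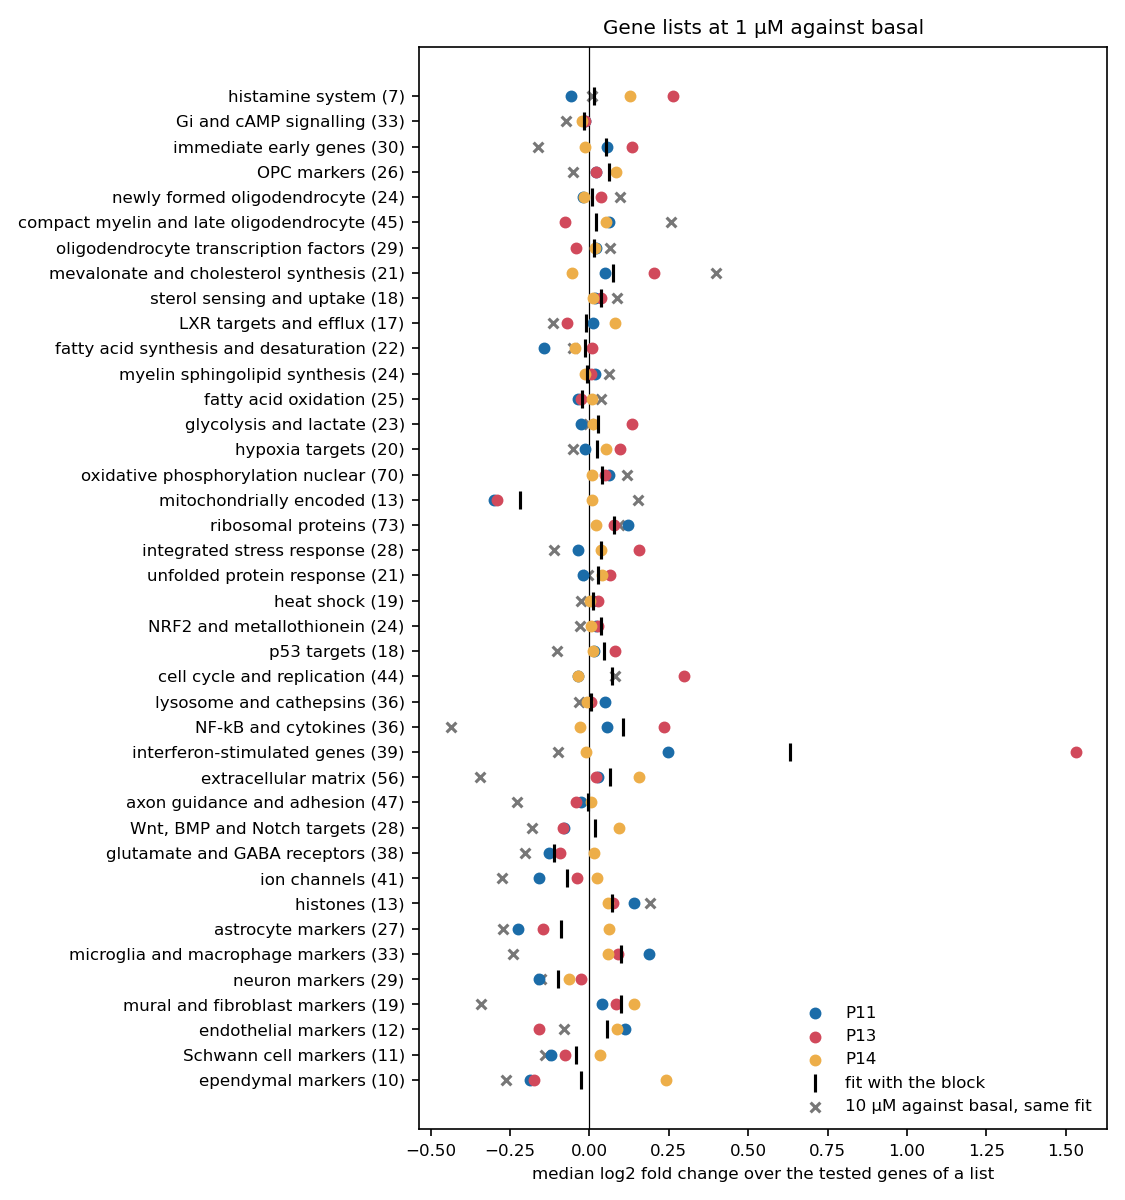
Median log2 fold change at 1 µM against basal over the tested genes of 40 lists (number in brackets), with dots for P11, P13 and P14, a bar for the fit with the block and a cross for 10 µM against the same basal libraries. The P13 dot of the interferon list lies at 1.53, and no other list's dot lies beyond 0.30 to the right.

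Ribosomal protein genes were mostly above 0 by a small amount. Of 73 tested genes 69 were above 0, the median was 0.08 and 43 were higher in all 3 numbers, where 13.7% of all genes were. The medians by number were 0.12, 0.08 and 0.02, and 6 genes were higher at an unadjusted p under 0.05, such as Rpl36 at 69.3, 62.0 and 52.0 CPM against 89.1, 68.2 and 59.1 CPM (0.23 ± 0.07) and Rps16 at 0.13 ± 0.04. With 1 library left out the median ran from 0.05, without basal P13, to 0.12, without basal P14, and the higher count from 0 to 13. Many ribosomal genes have processed copies elsewhere in the genome, so their counts are uncertain. Nuclear genes of oxidative phosphorylation, the respiratory chain of mitochondria, were above 0 in 57 of 70 cases with a median of 0.04, and 27 were higher in all 3 numbers. That median ran from 0.01, without basal P13, to 0.07, without basal P14. Ndufs7, of complex I, was at 0.16 ± 0.05.

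The genes on the mitochondrial genome itself were on the other side. All 13 tested were below 0 in the fit, with a median of -0.22, and the medians by number were -0.30, -0.29 and 0.01. Without basal P11 the median was -0.09 with 2 members above 0, and without 1 µM P13 it was -0.11. The group took 3.28, 2.61 and 2.92% of the reads in basal libraries and 2.71, 2.21 and 2.83% at 1 µM. Mt-co2, of complex IV, had 3012, 2630 and 3145 CPM against 2179, 2251 and 2859 CPM (-0.28 ± 0.12), the 1 gene of the group at an unadjusted p under 0.05. The share at 10 µM was 2.74, 3.25 and 3.36%, and no member passed between the doses. Such a share can also follow how libraries were made, which was not tested.

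Stress and chromatin genes showed little else. The 19 tested heat shock genes had a median of 0.01, with Dnajb4, a co-chaperone of HSP70, at -0.14 ± 0.05 beside Hspa1b at the lower end. The unfolded protein response (21 tested) had a median of 0.03 and Sdf2l1 at 0.21 ± 0.07, and NRF2 targets and metallothioneins (24 tested) a median of 0.04, with Nfe2l2 itself at 0.15 ± 0.05. Of 18 tested p53 targets 13 were above 0 (median 0.04), with Phlda3 at 0.19 ± 0.06 and Cdkn1a, which stops the cell cycle, at 0.10 ± 0.07. Of 13 tested histone genes 12 were above 0 (median 0.07, and 0.14 without 1 µM P13), and beside Hist2h2aa3 the linker histone H1f10 had 17.8, 17.3 and 16.2 CPM against 19.9, 21.2 and 21.3 CPM (0.29 ± 0.10), with no overlap between groups. Glycolysis (23 tested, median 0.03) and hypoxia targets (20 tested, median 0.02) each had 1 member at an unadjusted p under 0.05, Pfkl at 0.16 ± 0.06 and Higd1a at 0.12 ± 0.04.

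Guidance and developmental signalling genes were split when all libraries were used. Of 47 tested axon guidance and adhesion genes 24 were below 0 (median 0.00), with 3 lower and 1 higher at an unadjusted p under 0.05, among them Efnb3, an ephrin that axons and oligodendrocytes read, at -0.15 ± 0.05, and L1cam, an adhesion molecule of axons, at -0.20 ± 0.09. The higher one was Lingo1, a membrane protein known to restrain myelination, at 0.15 ± 0.05. The guidance split rested on single libraries. Without 1 µM P13 the guidance median was -0.06 with 11 of 47 above 0, and without basal P13 it was 0.03 with 29 above 0. Of 28 tested Wnt, BMP and Notch targets 16 were above 0 (median 0.02), with Dkk3, a secreted modulator of Wnt signalling, at 0.25 ± 0.08 and the Wnt factor Lef1 at -0.53 ± 0.22 from levels under 1.5 CPM. Lysosomal genes had a median of 0.01 over 36 tested, with Ctsz, a cathepsin, at 0.21 ± 0.08.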

How the data were processed

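RNA was extracted with RNeasy, made into Illumina Stranded mRNA Prep libraries and read on a NextSeq 500 with 75-base paired reads, per the labels' protocols. Per the submitters' processing notes, the tools were FastQC, Trimmomatic, DRAGEN and Picard on build rn6. Which program counted reads, with which strand setting and gene models, is not given in the sources used here, so genes that overlap or sit antisense to one another cannot be told apart. The authors deposited estimated counts per gene (expected counts, 92.4 to 93.0% of them whole), not scaled between libraries, and TPM values per gene length. IDs without a name (399) held at most 0.0111% of a library's reads. Promoter sequences came from a RefSeq table of build GRCr8, and no genome of the files' build was used.

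Counts were rounded before testing. Genes kept by filterByExpr (count minimum 10, total minimum 15) entered edgeR 4.0.16 (R 4.3.3). Its quasi-likelihood test used TMM factors, every one of the 9 libraries, 1 coefficient per group and the P number as an additive block, and p-values were adjusted by Benjamini-Hochberg over all genes (threshold 0.05). The SE is the log2 fold change over the square root of F. CPM values are TMM-scaled, and a prior count of 2 was added for log2 ratios within a P number and principal components. Intervals are per gene, unadjusted, and floors of 3 reads cover counting error only. The block is used because the comparison pairs libraries by P number. The 3 same-number pairs of basal and 1 µM libraries correlated in their deviations from group means at 0.409 to 0.768, and the 6 different-number pairs at -0.676 to 0.0944. The steps were tested on simulated data.

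The comparison, its 40 gene lists (1177 symbols, 1124 in the file) and the rule for named genes were chosen with earlier results of these data known, so lists are described by counts and medians with no test. Named genes are the 10 per direction with the smallest p, since no gene passed, among those averaging 2 CPM or more, with a descriptive symbol and 1 direction in all 3 P numbers, plus up to 4 members per list with the smallest p and a set of 40 core genes. Other genes were named after their values were seen: further list members, the interferon receptors and kinases, Irf3, Tlr3, Tlr7, Hist2h2aa2, Cers1 and the genes called by DESeq2. Alternatives were no block, DESeq2 1.42.0 and its size factors, library totals, limma 3.58.1 on log2(TPM + 1) and log2(TPM + 0.1) with and without a filter, other count filters, the 2 groups alone, robust dispersion, a 1.5-fold minimum and leaving out each library or P number. Leaving out libraries between the doses, the lists without 1 µM P13, the summary of lists with 1 library left out and the counts at an unadjusted p were added after seeing the data. Results for some genes are not reported here.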

Additional observations from a re-analysis of the deposited data

How the results depend on the processing

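The count of 0 genes called at 1 µM against basal held in 20 of 21 other settings, including the replicate block left out and each basal or 1 µM library, or each P number, left out, and DESeq2 called 8. The count at an unadjusted p under 0.05 (582) was 81 without the replicate block, 301 with DESeq2, 884 with the 2 groups alone, and 341 to 820 with libraries or P numbers left out, 341 without P14, 382 without P11 and 820 without P13 in all groups. Calls between 10 µM and 1 µM (659) and between 10 µM and basal (607) were both 0 without the replicate block, and DESeq2 called 947 for the latter. Leaving out 1 library moved the former to between 0 and 651. The cause was not tested. The 20 named higher and lower genes kept their sign in 419 of 419 recomputed values. They were chosen for a small p and the same direction in every P number, and the recomputed values use the same libraries. The kept signs thus do not test their direction. Over all 55 named genes recomputed, 63 of 1151 values had the other sign. The 5 calls among these 1151 values were all by DESeq2. No scaling moved the median of all genes by over 0.1. Depth limits genes under 1 CPM, of which 1.65% had an interval within 1.5-fold.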
